A study of Mus musculus with 8 samples.

Results

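The immunity-related GTPases (IRG) of the mouse are described here through 7 genes, Irgm1, Irgm2, Igtp, Iigp1, Tgtp1, Tgtp2 and Ifi47. They were taken by gene symbol from a table of 21434 genes measured by RNA-seq in pancreatic tissue, and all 7 were found there as protein-coding genes. The libraries came from 4 Bach2KO and 4 Bach2WT mice, each group with 2 females (mice 1 and 2) and 2 males (mice 3 and 4), untreated and 18 weeks old. Bach2KO mice were homozygous for the allele Bach2tm1b(EUCOMM)Wtsi on the C57BL/6N background, a knockout of the whole body rather than of 1 cell type, and Bach2WT mice were wild type animals of that strain. All were kept free of specific pathogens, in colonies at 2 sites, and the labels do not say which mouse came from which site. The question was which of the IRG genes differed in level between the genotypes.

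IRG proteins are interferon-inducible GTPases that attach to the vacuoles in which parasites and some bacteria live, and help to break them open. Iigp1 (also called Irga6), Tgtp1 and Tgtp2 (Irgb6) and Ifi47 (Irgd) are counted among the effectors that load onto such vacuoles. Irgm1, Irgm2 and Igtp (also called Irgm3) are the regulators, which sit on the membranes of the cell itself and keep the effectors inactive there. Interferon-gamma switches the family on through the receptor chains Ifngr1 and Ifngr2 and transcription factors such as Irf1, and most cell types of the body can respond. GAS and ISRE elements are the binding sequences of the interferon response in promoters, and Irf1 binds ISRE elements. Bach2 is a transcriptional repressor of B and T cells.

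Promoter sequences are shown first, because 5 of the members share interferon-response elements near the RefSeq start of the gene. RefSeq windows of 300 bases on GRCm38.p6, from 250 bases before to 50 after the start of the gene, held 6 of the 7 members. They were searched on both strands for a GAS-like element (TTCNNNGAA), an ISRE-like element (GAAANNGAAA or its reverse complement TTTCNNTTTC) and the element TGANTCA, and the letters found do not show that a factor binds. Irgm2, Igtp, Tgtp1 and Tgtp2 each held a GAS-like element (4 of 6 windows, against 8.3% of all 32851 windows) followed by an ISRE-like element. Irgm1 held overlapping ISRE-like elements and no GAS-like element, so 5 of 6 windows had an ISRE-like element, against 3.44% of all windows. GAS-like and ISRE-like elements occurred together in 4 of 6 member windows and in 0.454% of all windows. The stretches are printed with the elements in capitals, 5′ to 3′ on the strand of the gene.
Irgm2, chr11:58214890-58214934, plus strand: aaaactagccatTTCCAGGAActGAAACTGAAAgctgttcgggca
Igtp, chr11:58199499-58199543, plus strand: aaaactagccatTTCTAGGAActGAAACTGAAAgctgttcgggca
Tgtp1, chr11:48992302-48992346, minus strand: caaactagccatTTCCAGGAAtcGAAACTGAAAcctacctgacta
Tgtp2, chr11:49064261-49064305, minus strand: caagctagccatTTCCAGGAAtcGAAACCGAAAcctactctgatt
Irgm1, chr11:48871423-48871462, minus strand: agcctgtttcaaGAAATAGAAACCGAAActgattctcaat

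In the first 4 of these stretches, 2 bases separated the elements. Only 5 of 32851 windows (0.0152%) held this arrangement, on either strand, and they belonged to Irgm2, Igtp, Tgtp1, Tgtp2 and Gm12185, another gene of the family. The spacing was searched for after the sequences had been seen, so its rarity is a description. The pair lay 75 to 55 bases before the RefSeq start in Irgm2, 45 to 25 in Igtp, 88 to 68 in Tgtp1 and 81 to 61 in Tgtp2. These starts were not matched to the deposited genes. The deposited spans of Igtp and Irgm2 begin side by side, at 58090382 and 58090444, but their windows begin at 58199306 and 58214727. The Irgm2 window is thus not at the start of the counted gene span. Set beside Tgtp2, the Tgtp1 window was also offset from its deposited start. In Irgm1, the ISRE-like elements lay 30 to 15 bases before the start, and this window also held the single match to TGANTCA among the members (7.81% of all windows), 115 to 109 bases before the start. Over the whole window, the promoters of Igtp and Irgm2 were 72.8% identical and those of Tgtp1 and Tgtp2 66.8%, while the other pairs reached 39.3 to 50.3%. Ifi47 had none of the elements in its window, and for Iigp1 no window was used.

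**Figure D1:**
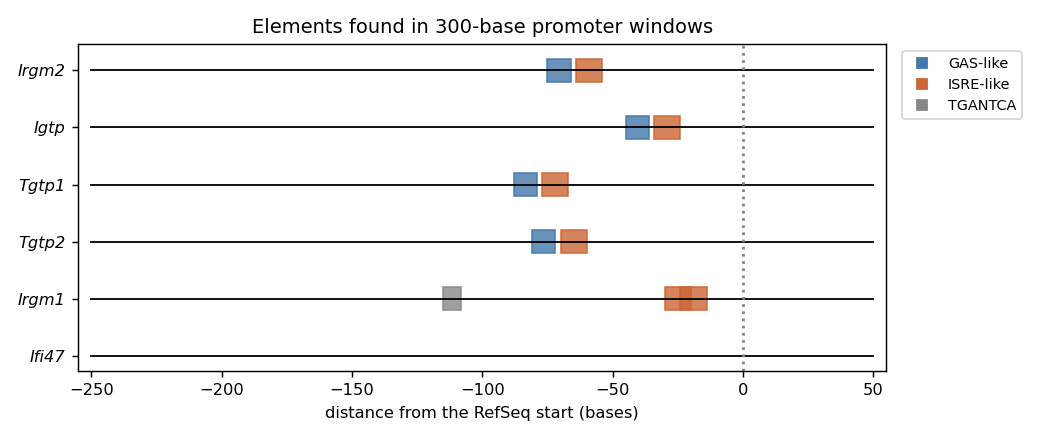
Elements in the promoter windows of 6 IRG genes, with the distance from the RefSeq start in bases on the x axis and one line per gene. Boxes mark GAS-like (blue), ISRE-like (orange) and TGANTCA (grey) matches; in Irgm2, Igtp, Tgtp1 and Tgtp2 a GAS-like box stands 2 bases before an ISRE-like box, and Ifi47 has no box.

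The libraries held 72299745 to 172029360 counts on genes, and the IRG members together took 64 to 1407 of them, so their values rest on few reads. Levels are given as CPM, the counts scaled to 1 common library total after TMM normalization, or as the deposited FPKM, which also divides by gene length. The library labelled Bach2KO 3 stood apart on the first principal component (101.8, against -34.8 to 7.2 in the other 7, with 23.3% of the variance). Without it, Tgtp1 also passed the filter on low counts, and 4 of 7 members were higher at an unadjusted p under 0.05 in edgeR. The share of all genes higher in that fit was not computed. The median log2 fold change was 1.78 over the members, beside 0.036 over all 13701 genes tested. Bach2 itself, at 16, 3, 12 and 14 counts in Bach2KO mice 1 to 4 and 4, 4, 31 and 6 counts in Bach2WT mice 1 to 4, was too low in both groups to check the genotype labels (exact permutation test, p = 0.943). Pancreatic acinar enzymes and factors dominated every library, with summed levels of 252780 to 305714 CPM in Bach2KO and 317757 to 413253 CPM in Bach2WT mice over 10 markers. The difference between these ranges depends on the TMM scaling. In bulk tissue, fewer cells of a type and less RNA per cell cannot be told apart.

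Taken as a sum, the 7 members reached 3.26, 7.68, 5.42 and 7.29 CPM in Bach2KO mice 1 to 4 and 2.91, 2.25, 1.95 and 0.922 CPM in Bach2WT mice 1 to 4. The lowest Bach2KO mouse, female 1, was close to the highest Bach2WT mouse, female 1. Mean sums were 5.91 ± 2.03 CPM in Bach2KO and 2.01 ± 0.828 CPM in Bach2WT mice (SD, n = 4), a ratio of 2.94. Of the 7 members, 6 passed the filter on low counts and were tested by edgeR among 12820 genes. None of the 6 passed an adjusted p of 0.05, a mark that 1 gene of all tested (0.0078%) passed upwards. At an unadjusted p under 0.05, 4 of 6 members were higher in Bach2KO mice, against 3.9% of all genes tested, and none was lower. In 4 of 6, the same 4 genes Irgm2, Igtp, Iigp1 and Ifi47, every Bach2KO value lay above every Bach2WT value, against 2.57% of all genes tested. The median log2 fold change of the 6 was 1.75, beside 0.048 over all genes tested.

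**Figure D2:**
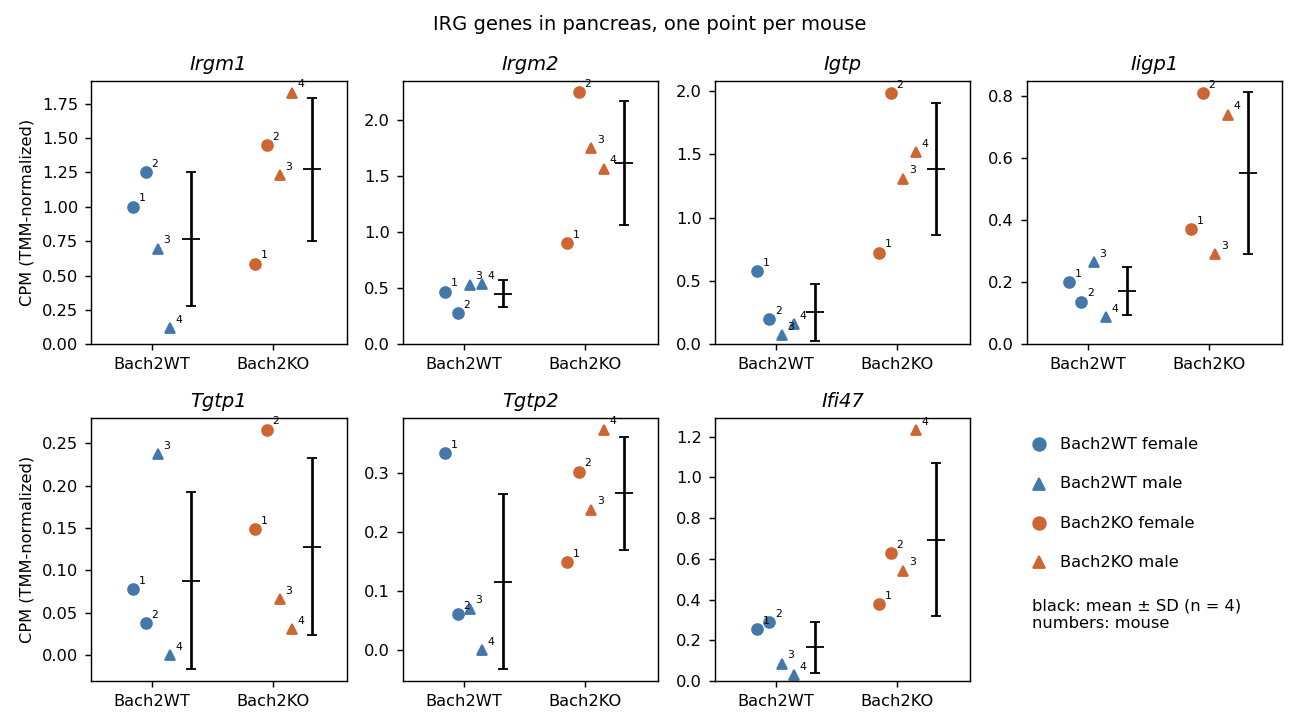
Level of each IRG gene (y axis, TMM-normalized CPM, own scale per panel) in 4 Bach2WT (blue) and 4 Bach2KO (orange) mice, with circles for females, triangles for males, mouse numbers beside the points and black bars for the mean ± SD. The genotypes are apart in Irgm2, Igtp, Iigp1 and Ifi47 and overlap in Irgm1, Tgtp1 and Tgtp2; Bach2WT mouse 4 has 0 counts of Tgtp1 and Tgtp2.

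Among the regulators, Irgm2 separated the genotypes with the smallest standard error of its log2 fold change. Irgm2 (ENSMUSG00000069874; GRCm39 chromosome 11, 58090444 to 58113608, plus strand) stood at 0.902, 2.25, 1.74 and 1.57 CPM in Bach2KO mice 1 to 4 and at 0.467, 0.274, 0.529 and 0.533 CPM in Bach2WT mice 1 to 4. All Bach2KO mice were thus above all Bach2WT mice, and the Bach2WT mice lay close together. The mean was 1.61 ± 0.556 against 0.451 ± 0.121 CPM (SD, n = 4), a ratio of 3.58. On the log2 scale the difference was 1.84 (standard error 0.36), with an unadjusted p of 0.000197 and an adjusted p of 0.266 in edgeR. By a two-sided exact permutation test of the 8 CPM values p was 0.0286, the smallest value that 4 against 4 mice allow.

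Igtp had the largest ratio between the genotypes among the 7 members. It measured 0.723, 1.98, 1.31 and 1.52 CPM in Bach2KO mice 1 to 4 and 0.578, 0.198, 0.0696 and 0.158 CPM in Bach2WT mice 1 to 4 (ENSMUSG00000078853; GRCm39 chromosome 11, 58090382 to 58098417, plus strand). Female 1 of the Bach2WT group was the highest of that group and came within reach of female 1 of the Bach2KO group, but the groups did not overlap. Mean levels were 1.38 ± 0.522 and 0.251 ± 0.224 CPM (SD, n = 4; ratio 5.51). The log2 fold change of Igtp was 2.47 (standard error 0.57; edgeR unadjusted p = 0.000759, adjusted p = 0.352), with an exact permutation p of 0.0286. Igtp and Irgm2 passed the adjusted threshold with DESeq2 (adjusted p = 0.00550 and 0.00191), where 0.388% of 14700 genes were higher at that mark, and they were the 2 members that did. The gene spans of Igtp and Irgm2 overlap by 7974 bases on the same strand in the deposited coordinates. In the GRCm38 annotation, 162 exonic bases were common to both, 8.01% of those of Igtp and 4.39% of those of Irgm2, and 0.739% and 0.437% of their transcript windows of 150 bases had an identical copy in the other gene.

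Irgm1 differed from these in that its groups overlapped. It stood at 0.587, 1.45, 1.23 and 1.83 CPM in Bach2KO mice 1 to 4 and at 1.00, 1.25, 0.696 and 0.115 CPM in Bach2WT mice 1 to 4 (ENSMUSG00000046879; GRCm39 chromosome 11, 48752795 to 48762510, minus strand). Bach2KO female 1 was below 3 of the 4 Bach2WT mice, and Bach2WT male 4, with 8 counts, was far below all others. The means were 1.27 ± 0.521 and 0.765 ± 0.489 CPM (SD, n = 4), with a log2 fold change of 0.72 (standard error 0.54; edgeR unadjusted p = 0.203, adjusted p = 0.822). Whether Irgm1 was affected less than the other regulators was asked with count ratios within each mouse, a choice made after the values were seen. Igtp counts per Irgm1 count were 1.23, 1.37, 1.06 and 0.83 in Bach2KO mice 1 to 4 and 0.578, 0.159, 0.1 and 1.38 in Bach2WT mice 1 to 4. The genotypes overlapped because of Bach2WT male 4, whose Irgm1 count was low. Over the 3 ratios among Irgm1, Irgm2 and Igtp, the two-sided exact permutation p was 0.143 to 0.4 (0.4 for each after Benjamini-Hochberg adjustment), so a difference in response between the regulators was not shown.

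Of the effectors, Ifi47 and Iigp1 separated the genotypes. Ifi47 measured 0.377, 0.628, 0.542 and 1.23 CPM in Bach2KO mice 1 to 4 and 0.255, 0.290, 0.0836 and 0.0288 CPM in Bach2WT mice 1 to 4 (ENSMUSG00000078920; GRCm39 chromosome 11, 48967414 to 48987801, plus strand). Bach2KO male 4 was highest, and both Bach2WT males were below both Bach2WT females. The means of 0.695 ± 0.374 and 0.164 ± 0.128 CPM (SD, n = 4) stood at a ratio of 4.23, and edgeR put the difference at 2.06 on the log2 scale (standard error 0.65; unadjusted p = 0.00748, adjusted p = 0.531). Without Bach2KO male 4 the log2 fold change of Ifi47 was 1.63 and its unadjusted p 0.0521. Iigp1 (ENSMUSG00000054072) measured 0.371, 0.809, 0.291 and 0.741 CPM in Bach2KO mice 1 to 4 and 0.200, 0.137, 0.265 and 0.0864 CPM in Bach2WT mice 1 to 4. Its groups were apart by a small gap, between Bach2KO male 3 and Bach2WT male 3. The log2 fold change of Iigp1 was 1.66 (standard error 0.56; edgeR unadjusted p = 0.0107, adjusted p = 0.547), from means of 0.553 ± 0.260 and 0.172 ± 0.0772 CPM (SD, n = 4). For Ifi47 and for Iigp1 alike, the exact permutation p was 0.0286.

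Tgtp1 and Tgtp2, the near-identical pair, had the lowest mean CPM of the 7 members in both genotypes and did not separate them. Tgtp2 (ENSMUSG00000078921; GRCm39 chromosome 11, 48948021 to 48955033, minus strand) had 24, 25, 18 and 72 counts in Bach2KO mice 1 to 4 and 30, 8, 10 and 0 counts in Bach2WT mice 1 to 4. Bach2WT female 1 reached the Bach2KO range, and Bach2WT male 4 had none. The log2 fold change of Tgtp2 was 1.19 (standard error 0.95; edgeR unadjusted p = 0.233, adjusted p = 0.841), and it was 2.50 without Bach2WT female 1 (unadjusted p = 0.0295, adjusted p = 0.418) and 0.80 without Bach2WT male 4. Tgtp1 (ENSMUSG00000078922; GRCm39 chromosome 11, 48876154 to 48884999, minus strand) had 24, 22, 5 and 6 counts in Bach2KO mice 1 to 4 and 7, 5, 34 and 0 counts in Bach2WT mice 1 to 4. It did not pass the filter on low counts, and an exact permutation test of its CPM gave p = 0.6. Of the 150-base windows of the Tgtp1 transcripts, 62.5% occurred in Tgtp2, and 71.7% of those of Tgtp2 occurred in Tgtp1, so the split of reads between them is uncertain. The span of Tgtp1 also overlaps that of Gm12185 by 6900 bases on the same strand. Gm12185 had at most 4 counts in any library. In the GRCm38 annotation, 223 exonic bases were common to both, 6.96% of those of Tgtp1. Summed over both genes, the level was 0.297, 0.568, 0.304 and 0.404 CPM in Bach2KO mice 1 to 4 and 0.411, 0.0991, 0.306 and 0 CPM in Bach2WT mice 1 to 4 (exact permutation test, p = 0.257). For the 0 counts of Bach2WT male 4, a floor of 3 counts is 0.0432 CPM for each gene, which covers counting error only.

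**Figure D3:**
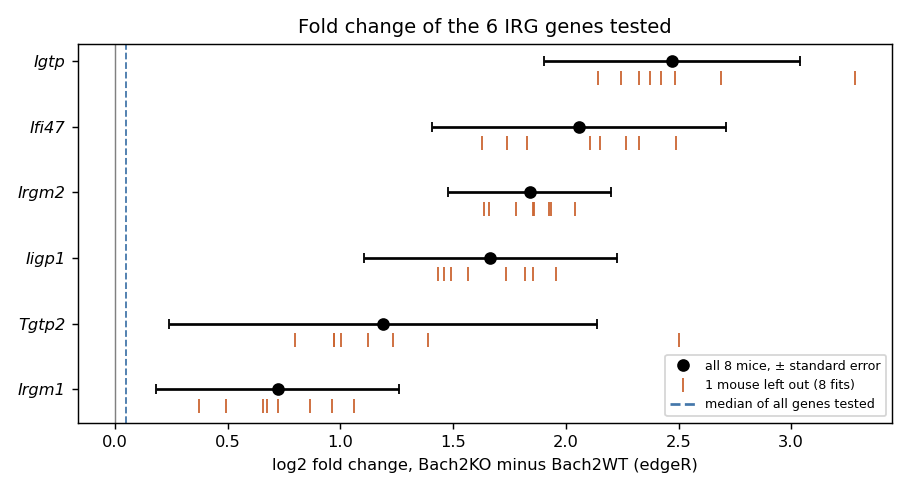
Log2 fold change of Bach2KO minus Bach2WT for the 6 IRG genes tested by edgeR (x axis, black points with standard errors, all 8 mice), with orange ticks for the 8 fits that leave out 1 mouse. All points lie right of 0 and of the median of all genes tested (dashed, 0.048), from 0.72 for Irgm1 to 2.47 for Igtp, and the tick farthest from its point is that of Tgtp2 at 2.50.

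The members were compared with each other per gene length. In Bach2WT mice the order of the median FPKM was Irgm1 (0.143), Irgm2 (0.133), Igtp (0.0871), Ifi47 (0.0672), Iigp1 (0.0284), Tgtp2 (0.0220) and Tgtp1 (0.0177). In this order no gene was above the next in all 4 mice, so neighbours did not differ beyond their spread. In Bach2KO mice the order was Igtp (0.685), Irgm2 (0.440), Ifi47 (0.231), Irgm1 (0.225), Iigp1 (0.0924), Tgtp2 (0.0895) and Tgtp1 (0.0321). Here Igtp was above Irgm2 in 4 of 4 mice, Ifi47 above Irgm1 in 4 of 4, Irgm1 above Iigp1 in 4 of 4 and Tgtp2 above Tgtp1 in 4 of 4. In each of these pairs, the FPKM ranges of the genes overlapped between mice. FPKM divides by 5810 bases for Irgm1 and 5823 for Iigp1, the length of all their annotated exons. The protein-coding transcripts of these genes held only 2302 and 3057 different windows of 150 bases. The place and share of Irgm1 and Iigp1 therefore depend on the length used. By CPM, Irgm1 was above Ifi47 in every Bach2KO mouse. Bach2KO female 1 had 24 counts of Tgtp1 and 24 of Tgtp2, so their order in that mouse rests on gene length. Igtp made up 33.3 to 40.5% of the summed FPKM of the family in the Bach2KO mice and 7.26 to 33.2% in the Bach2WT mice. Irgm1 made up 9.95 to 14.0% and 7.37 to 38.4%, so its share varied widely in the Bach2WT group. Every member was low in this tissue, since the highest FPKM of any member in any library was 0.948 (Igtp, Bach2KO female 2). Over the 8 libraries, the median FPKM of Igtp was above that of 55.9% of the genes tested and that of Iigp1 above 14.7%.

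**Figure D4:**
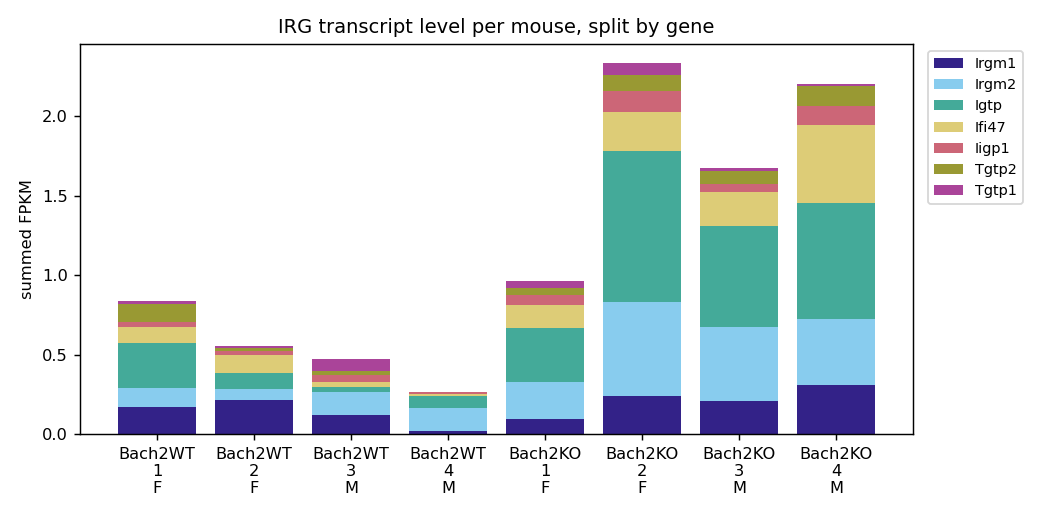
Summed FPKM of the 7 IRG genes (y axis) in each of the 8 mice (x axis, F female, M male), with a coloured segment per gene. Igtp (green) is the largest segment in every Bach2KO mouse, Irgm1 (dark blue) leads in Bach2WT mouse 2, and Bach2WT mouse 4 has the lowest stack. The segment sizes depend on the gene length used, which counts all annotated exons.

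Within the sexes, the difference between genotypes was computed on log2 CPM with a prior count of 2, with 2 mice per group. Irgm2 was higher in Bach2KO mice by 1.94 in females and 1.61 in males, and Iigp1 by 1.63 and 1.50. For Igtp the values were 1.77 and 3.53, and for Ifi47 0.80 and 3.62. Irgm1 differed by -0.27 in females and 2.30 in males, and Tgtp2 by 0.48 and 3.04. Both Bach2WT males had less of Igtp and Ifi47 than both Bach2WT females. The edgeR test of the interaction of sex and genotype gave Ifi47 the smallest p of the 6 (male minus female 3.01, standard error 1.08, unadjusted p = 0.0166, adjusted p = 0.793), where 6.14% of all genes tested had an unadjusted p under 0.05. None of the 12820 genes tested by edgeR passed the adjusted threshold for the interaction (787 at an unadjusted p under 0.05), and DESeq2 put 0 of the 7 members past it, so a difference between the sexes was not shown for the IRG genes.

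The members did not all follow each other from mouse to mouse. Over the 8 libraries, log2 CPM of Irgm1 had a Pearson correlation of 0.87 with Ifi47 and 0.86 with Tgtp2, and these were 0.92 and 0.83 after the genotype means had been taken out. Irgm2 and Igtp correlated at 0.83, and at 0.24 without the genotype means. Irgm1 and Irgm2 correlated at 0.38, and at -0.07 without the genotype means. All points share genotype and library, and these values describe 8 mice. The highest level was found in Bach2KO female 2 for Irgm2, Igtp, Iigp1 and Tgtp1, and in Bach2KO male 4 for Irgm1, Tgtp2 and Ifi47.

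Genes of the interferon-gamma pathway outside the family were read from the same fit. Ifng, the ligand, was not found by symbol among the deposited genes, so its level could not be read. The receptor chains were at log2 fold changes of 0.66 for Ifngr1 and -0.13 for Ifngr2 (edgeR adjusted p = 0.769 and 0.960). Irf1, a transcription factor induced by interferon-gamma, measured 0.933, 1.80, 1.19 and 2.29 CPM in Bach2KO mice 1 to 4 and 0.822, 0.846, 0.912 and 0.518 CPM in Bach2WT mice 1 to 4. Its groups did not overlap, with a narrow gap between Bach2KO female 1 and Bach2WT male 3 (log2 fold change 1.00, standard error 0.34, unadjusted p = 0.0113, edgeR adjusted p = 0.552). Of the 13 genes listed for this pathway, 11 were tested, with a median of 0.46. At an unadjusted p under 0.05, 2 were higher and 0 lower (0 adjusted), against 3.9% and 3.56% of all genes tested. The count of higher genes was 0 without Bach2KO male 4, 1 without Bach2KO female 2 and 4 without Bach2WT female 1.

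Other interferon-inducible groups were counted in the same way as the IRG members. Of 7 tested guanylate-binding proteins, large GTPases that act on the same vacuoles as the IRG proteins, 1 was higher and 0 lower at an unadjusted p under 0.05, with all 7 log2 fold changes above 0 and a median of 1.36. Gbp5 (2.86, standard error 1.28, edgeR adjusted p = 0.663) and Gbp4 (1.78, standard error 0.83, edgeR adjusted p = 0.668) had the smallest p-values, and leaving out 1 mouse moved the count of higher genes between 0 and 4 (4 without Bach2WT female 1, and 0 without Bach2KO female 2, Bach2KO male 4 or Bach2WT male 4). The count was 3 with DESeq2, and also 3 in edgeR without the filter on low counts. Of 7 tested interferon-gamma targets, 5 were higher and 0 lower (median 1.19), led by Tap1, the peptide transporter (1.34, standard error 0.29, edgeR adjusted p = 0.340), and Psmb9, an immunoproteasome subunit (1.19, standard error 0.36, edgeR adjusted p = 0.529). Without Bach2KO male 3 this list had 3 higher and 1 lower. Only 7 of the 15 genes listed were tested. The summed level of the 15 overlapped, at 65.6 to 121 CPM in Bach2KO and 75.1 to 126 CPM in Bach2WT mice. Of 10 tested type I interferon targets, 1 was higher and 0 lower (median 0.55), with Oasl2 at 1.14 and Cmpk2 at -0.89. With RLE normalization this list had 0 higher and 1 lower. Of 7 type I signalling genes, 0 were higher and 1 lower (median 0.14), namely Irf3 at -0.37, with Irf9 at 0.76. Of all genes tested, 3.9% were higher and 3.56% lower at an unadjusted p under 0.05. None of the tested genes of these lists passed the adjusted threshold in edgeR. With DESeq2, Tap1 (adjusted p = 0.0108) and Cxcl9, a chemokine on the interferon-gamma target list that edgeR did not test (adjusted p = 0.0101), passed it.

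Further IRG genes and the proteins that place IRG proteins on membranes were also counted. Of 9 other IRG family genes in the table, 2 passed the filter, Gm4951 (log2 fold change 1.17, unadjusted p = 0.334) and Irgq (-0.15, unadjusted p = 0.604), and neither passed the test. DESeq2 tested all 9 and had 2 higher, Gm12250 (4.12, DESeq2 unadjusted p = 0.0356) and Gm4841 (5.15, DESeq2 unadjusted p = 0.0493). These had at most 19 and 18 counts in any library. In edgeR without the filter on low counts, 1 of the 9 was higher at an unadjusted p under 0.05. Of 14 tested genes of the ATG conjugation system and partners at the vacuole, which guide IRG proteins to vacuole membranes, 0 were higher and 1 was lower at an unadjusted p under 0.05, with a median of -0.03. The gene was Map1lc3a at -0.45 (unadjusted p = 0.0226, edgeR adjusted p = 0.627), followed by Gabarap at -0.32 (unadjusted p = 0.0707). When 1 mouse was left out, the counts of 0 or 1 in this list and in both type I interferon lists moved between 0 and 2.

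Outside the family, 9 of the 10 tested genes whose log2 CPM was most like the mean log2 CPM of the 6 IRG genes were Gm6969, Nup188, Stx2, Josd1, Sh3pxd2b, Ccl6, Mgl2, Selplg and B2m, with Pearson correlations of 0.978 down to 0.935 over 8 libraries. Gm6969 kept 0.944 after the genotype means were taken out and B2m 0.793. B2m is the light chain of MHC class I, Ccl6 a chemokine, Selplg the ligand of P-selectin and Mgl2 a lectin of macrophages. Irf1 had a Pearson correlation of 0.914 and a Spearman correlation of 0.905 with the IRG mean. Pearson's value was 0.791 after the genotype means were taken out. It was 0.881 without the 2 libraries farthest from the Irf1 median, Bach2KO 2 and Bach2KO 4. The 9 genes are among the most alike of 12820, Irf1 was chosen by role, and all values come from 8 points that share genotype and library.

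**Figure D5:**
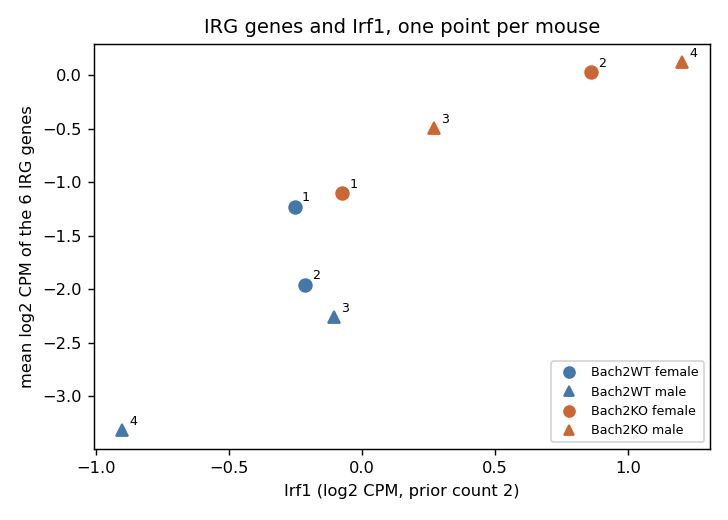
Mean log2 CPM of the 6 tested IRG genes (y axis) against log2 CPM of Irf1 (x axis), prior count 2, one point per mouse, with colours for the genotype, shapes for the sex and mouse numbers beside the points. Bach2WT mouse 4 is lowest and Bach2KO mouse 4 highest on both axes, and Bach2KO mouse 1 lies next to Bach2WT mouse 1.

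Markers of immune and other cell types were compared in the same libraries, since IRG genes are expressed in immune cells as well as in tissue cells. T-cell markers summed to 3.74, 1.21, 1.39 and 1.51 CPM in Bach2KO mice 1 to 4 and 2.85, 1.02, 0.460 and 0.590 CPM in Bach2WT mice 1 to 4, so female 1 of each genotype had the highest value. The IRG sum of Bach2KO female 1 was the lowest of its group, and that of Bach2WT female 1 was the highest of its group. Macrophage markers ranged from 23.8 to 37.7 CPM in Bach2KO and from 17.2 to 31.8 CPM in Bach2WT mice, with 2 of 10 markers higher and 0 lower at an unadjusted p under 0.05. Dendritic-cell markers ranged from 1.27 to 1.88 and from 0.822 to 1.14 CPM and did not overlap, though 0 of 2 tested markers passed. No marker of these lists was at 0 in all 8 libraries, but the NK-cell markers Klrd1, Klre1 and Prf1 were at 0 in every Bach2WT library and Ncr1 in every Bach2KO library. NK-cell markers ranged from 0.169 to 0.779 and from 0.0288 to 0.267 CPM, B and plasma cell markers from 5.15 to 16.3 and from 3.66 to 9.93 CPM. Endothelial markers, with 2 of 10 higher, ranged from 37.0 to 78.1 and from 29.8 to 42.2 CPM, highest in Bach2KO male 3. Bach2WT male 4, the mouse with the lowest IRG sum, had the lowest macrophage, NK, B and plasma cell, endothelial, stellate-cell and adipocyte sums. It shared the lowest neutrophil sum of 0 with Bach2WT female 2. Its T-cell and dendritic-cell sums (0.590 and 0.864 CPM) were above those of Bach2WT male 3 (0.460 and 0.822 CPM). Its duct-cell and islet-cell sums were not the lowest either. Neutrophil markers ranged from 0.176 to 0.918 CPM in Bach2KO and from 0 to 0.255 CPM in Bach2WT mice, with 0 of 1 tested marker past an unadjusted p of 0.05 in edgeR. Duct-cell markers, with 2 of 6 tested higher and 2 without overlap, ranged from 25.3 to 33.3 and from 19.4 to 28.6 CPM. With DESeq2, the neutrophil markers S100a8 and S100a9 (adjusted p = 0.0268 and 0.0265) and the duct-cell marker Epcam (adjusted p = 0.04998) were higher, and the acinar marker Cpa1 was lower (adjusted p = 0.0457). The summed markers of islet cells, stellate cells and adipocytes overlapped between the genotypes. Acinar markers were lower in Bach2KO mice after TMM scaling, with 2 of 10 below at an unadjusted p under 0.05. Their summed levels did not overlap, but depend on the TMM factors (1.05 to 1.18 in Bach2KO and 0.826 to 1.10 in Bach2WT mice). Without that scaling, the share of counts on digestive enzymes overlapped, at 85.2 to 87.3% in Bach2KO and 86.9 to 88.6% in Bach2WT mice. The part of these cell types in the IRG values was not tested.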

How the data were processed

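RNA from pancreatic tissue of 8 mice was sequenced as mRNA libraries. The authors deposited counts per gene without normalization, a signal of those counts divided by a size factor, FPKM values, and their own fold changes and p-values, which were not used. The submitters' processing notes name fastp, HISAT2 2.2.1, featureCounts 2.0.6 and mm39. The strand setting of the counting is not given in the sources used here. The deposited counts were tested with edgeR 4.0.16 (R 4.3.3; TMM, filterByExpr on genotype, quasi-likelihood test, all 8 libraries, no covariate), with Benjamini-Hochberg adjustment over 12820 of 21434 genes and a threshold of 0.05. Standard errors are the log2 fold change divided by the square root of F. The procedure was tested on simulated data, with the same dispersion for all genes and changes placed only in genes above a set level. That does not show how often a difference would be found in members with low or variable counts. Alternatives were DESeq2 1.42.0, limma 3.58.1 on log2(FPKM + 0.1 or 1), other normalizations and filters, sex as a covariate, a replicate block, a gene length offset, summed overlapping pairs, and leaving out each mouse. The mouse numbers were not taken as pairs, since the labels give no pairing. After the genotype means were taken out of log2 CPM, same-numbered libraries correlated at 0.21, -0.034, -0.041 and -0.054. For Bach2KO mouse 1 alone, the most alike Bach2WT library was the one of the same number. These values cannot show that no mice were paired. P-values set the difference between genotypes against the spread between mice, which edgeR, DESeq2 and limma estimate in part from other genes. The exact permutation tests use the 8 values of a gene alone. Members and lists were chosen with earlier results of these data known. All members were named, with the 2 genes of smallest p per list, the pathway genes given by role and the 10 genes of most alike pattern, apart from 2 genes that are not reported here. Promoter windows came from RefSeq (GRCm38.p6), transcripts from GENCODE M21, and no coordinates were converted. A planned protein comparison was not made. No column of values was left unmatched to a sample.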

Additional observations from a re-analysis of the deposited data

How the results depend on the processing

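All 6 tested IRG genes kept a log2 fold change above 0 under every alternative that tested them. Without the filter on low counts and with DESeq2, 2 members (Irgm2 and Igtp) passed the adjusted threshold, against 0 in edgeR: Irgm2 at 1.84 and Igtp at 2.48 without the filter (adjusted p = 0.0163 and 0.0150), and 1.82 and 2.46 with DESeq2. With at least 10 counts in every library only Irgm2 and Igtp were tested, and 2 passed an unadjusted p under 0.05 and 2 did not overlap. The members' median was 0.85 by limma on log2(FPKM + 0.1) and 0.18 on log2(FPKM + 1), pseudocounts that are large beside these levels. A gene length offset moved the median of all genes tested from 0.048 to -0.086 and the members' median to 1.59. Leaving out each mouse left 6 or 7 members tested and gave 0 past the adjusted threshold, 3 to 5 at an unadjusted p under 0.05, 4 to 5 without overlap and a median of 1.43 to 1.93. The log2 fold change then ranged from 0.37 to 1.06 for Irgm1, 1.64 to 2.04 for Irgm2, 2.14 to 3.28 for Igtp, 1.43 to 1.96 for Iigp1, -0.13 to 0.82 for Tgtp1 where it was tested (lowest without Bach2KO mouse 2), 0.80 to 2.50 for Tgtp2 and 1.63 to 2.49 for Ifi47. Adjusted p over all alternatives was 0.00191 to 0.617 for Irgm2 and 0.00550 to 0.674 for Igtp. With the replicate number as a block, 0 members passed the adjusted threshold and 4 the unadjusted one, with a median of 1.86. For these alternatives, shares over all genes were not computed, apart from that of DESeq2 given above. A lack of overlap is also easier to reach with 1 mouse fewer. The low counts of Tgtp1 and Tgtp2 limit what can be read from them.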
